A study of Homo sapiens with 8 samples.

Results

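The genes described here build or cross-link the cornified envelope of squamous epithelial cells. They were taken by name, as genes of this structure, but with earlier results of these data known, so the choice was not blind to the values. They are the small proline-rich proteins SPRR1A, SPRR1B, SPRR2A, SPRR2D and SPRR3, involucrin (IVL), transglutaminase 1 (TGM1), envoplakin (EVPL), periplakin (PPL) and cornifelin (CNFN). Of these 10 genes, 9 had transcripts in the files, among 35113 genes in all, and TGM1 was not analysed here. Of the 9 genes, 7 passed the filter on low counts and were tested among 15221 genes, while SPRR2A and SPRR3 did not pass and are given as values only.

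RNA was sequenced from the HPV− line UPCISCC89 (parental cells, SCC89, and a cisplatin-resistant clone, SCC411) and the HPV+ line UDSCC2 (parental cells, SCC2, and a cisplatin-resistant clone, SCC35). Both are established head and neck squamous cell carcinoma lines, and HPV status is that of the line. Each clone grew from a single cell after prolonged culture in rising cisplatin, at a higher dose for the HPV+ line, and was then kept in medium without cisplatin, so each resistant group stands for 1 clone. There were 2 libraries per group, 8 in all, with 20250246 to 27341284 read pairs each. Whether both libraries of a group were grown as separate cultures is not stated, and the p-values below cover only the spread between libraries, which may be technical.

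The cornified envelope is the protein shell that replaces the plasma membrane when a keratinocyte completes terminal differentiation. Envoplakin and periplakin form a scaffold beneath the membrane, involucrin is attached to it early, and the small proline-rich proteins are then added as flexible cross-bridges, all joined by transglutaminases, of which transglutaminase 1 is the membrane-bound form of the epidermis. Cornifelin is another component of the shell. The genes of involucrin and the small proline-rich proteins lie side by side in the epidermal differentiation complex on chromosome 1, and many of them are textbook targets of AP-1 transcription factors.

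In GRCh38, the 6 genes of the chromosome 1 cluster spanned 148967 bases, from the start of IVL at 152908546 to the end of SPRR2A at 153057512. EVPL lies on chromosome 17 (76004502 to 76027306), PPL on chromosome 16 (4882507 to 4960741) and CNFN on chromosome 19 (42387019 to 42390297). RefSeq promoter sequences (GRCh38.p14, the 250 bases before and 50 bases after the gene start) were at hand for IVL, SPRR1A, SPRR1B, SPRR2A, SPRR3 and CNFN. The 250 bases before the start are printed for 4 of them, because SPRR1B moved opposite to CNFN in both lines, and IVL and SPRR2A lie in the same cluster as SPRR1B. They are given 5′ to 3′ on the gene's own strand, and capitals mark the AP-1 motif TGANTCA and the TATA motif TATAAA. The coordinates are chr1:153030953-153031202 on the plus strand for SPRR1B, chr1:153057513-153057762 on the minus strand for SPRR2A, chr1:152908296-152908545 on the plus strand for IVL and chr19:42390298-42390547 on the minus strand for CNFN.
SPRR1B: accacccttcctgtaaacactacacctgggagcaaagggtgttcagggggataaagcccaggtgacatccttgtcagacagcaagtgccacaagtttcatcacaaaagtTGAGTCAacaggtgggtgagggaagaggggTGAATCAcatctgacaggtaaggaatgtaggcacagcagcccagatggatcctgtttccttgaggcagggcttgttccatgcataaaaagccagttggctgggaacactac
SPRR2A: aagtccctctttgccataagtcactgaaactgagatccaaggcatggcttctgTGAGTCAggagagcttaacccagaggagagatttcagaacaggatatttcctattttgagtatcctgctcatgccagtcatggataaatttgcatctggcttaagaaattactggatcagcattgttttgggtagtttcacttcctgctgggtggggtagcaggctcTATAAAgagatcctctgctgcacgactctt
IVL: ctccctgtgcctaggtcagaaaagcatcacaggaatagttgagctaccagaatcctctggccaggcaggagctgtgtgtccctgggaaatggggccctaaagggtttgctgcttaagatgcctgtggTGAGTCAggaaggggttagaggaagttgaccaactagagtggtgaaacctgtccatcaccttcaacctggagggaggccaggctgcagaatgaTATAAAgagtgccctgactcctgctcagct
CNFN: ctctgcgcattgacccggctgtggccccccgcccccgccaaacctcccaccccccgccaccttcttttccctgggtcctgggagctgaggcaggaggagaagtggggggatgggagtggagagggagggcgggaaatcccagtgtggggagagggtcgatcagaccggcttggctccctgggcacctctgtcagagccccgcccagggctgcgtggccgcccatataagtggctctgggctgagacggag

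Both strands of the 300 bases were searched. The motif TGANTCA was found in each of the 5 chromosome 1 promoters, starting 141 and 111 bases before the start of SPRR1B, 123 bases before IVL, 108 before SPRR1A, 170 before SPRR3 and 197 before SPRR2A, and was not found in CNFN. It was present in 7.71% of 35093 RefSeq promoters of the same length. TATAAA was found 29 or 30 bases before the start of IVL, SPRR1A, SPRR3 and SPRR2A and not in SPRR1B or CNFN, against 11.5% of all promoters. The ETS core GGAAG and the motif CACCC, which occur in 71.9% and 59.9% of these promoters, were searched as well. GGAAG was found in IVL, SPRR3, SPRR1B and SPRR2A, and CACCC in SPRR1A, SPRR3, SPRR1B, SPRR2A and CNFN. Matches of TGANTCA and TATAAA did not overlap each other, while 1 match of CACCC in SPRR1B overlapped a TGANTCA. A match here describes the sequence and does not show that a factor binds.

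SPRR1B, a cross-bridging protein that stressed and cultured squamous cells also make, was measured with more reads than any other gene of the cluster. Values are CPM, the read pairs of a gene as a rate scaled to the size of its library, and are compared between groups, not between genes. In HPV− parental cells its libraries held 121 and 114 CPM (118 ± 4.80, mean ± SD, n = 2). The HPV− resistant clone held 0.0504 and 0 CPM, a single read pair in both libraries together. HPV+ parental cells held 0.236 and 0.529 CPM, and the HPV+ resistant clone held 1.78 and 1.59 CPM. The HPV− parental libraries were thus far above all others, and within each line the resistant and parental libraries did not overlap.

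SPRR1B fell in the HPV− resistant clone. By counts, 4800 read pairs in the parental group stood against 1 in the clone, a ratio of 4684 with an exact 95% counting interval of 840 to 185042, and the log2 fold change was −11.91 ± 0.43 (SE, adjusted p = 3.35e-07, edgeR quasi-likelihood test). The fitted size depends on that single read pair: it was −11.1 without HPV− resistant replicate 2 and −14.4 without replicate 1, which left the clone with none. The counting interval covers counting error only and not the spread between libraries, so the size of the fall is poorly fixed. In the HPV+ line SPRR1B rose 4.34-fold (log2 fold change 2.12 ± 0.34, SE, adjusted p = 0.00282), though to a level far below that of HPV− parental cells. The size of this rise rested on the parental libraries, with a log2 fold change of 1.65 without HPV+ parental replicate 1 and 2.80 without replicate 2, and the call held in both. Bulk RNA cannot tell fewer cells that express a gene from less RNA per cell.

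SPRR2D, a cross-bridging protein of the larger SPRR2 family, fell in the HPV− and rose in the HPV+ clone as SPRR1B did. Its libraries held 1.76 and 1.80 CPM in HPV− parental cells, 0 and 0 in the HPV− resistant clone, 0.236 and 0.227 in HPV+ parental cells and 1.82 and 1.12 in the HPV+ resistant clone. One library of the HPV+ clone lay just above and the other below the HPV− parental libraries, while the HPV− clone had no read pair in either library. SPRR2D fell in the HPV− clone (adjusted p = 0.00103) and was at least 23.7-fold lower, counted against a floor of 3 read pairs over the group. In the HPV+ clone it rose by 2.64 ± 0.62 on the log2 scale (SE, 6.25-fold, adjusted p = 0.0187). The latter call was lost when either HPV+ parental library was left out (adjusted p = 0.143 for replicate 1 and 0.132 for replicate 2) or the first HPV+ resistant library (0.0844), with log2 fold changes of 2.66, 2.61 and 2.25.

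SPRR1A, the closest relative of SPRR1B, was expressed at 1.44 and 1.67 CPM in HPV− parental cells. It had no read pair in the HPV− resistant clone, 0 and 0.0755 CPM in HPV+ parental cells and 0 and 0.0387 CPM in the HPV+ resistant clone. It fell in the HPV− clone (at least 20.8-fold lower, adjusted p = 0.00504). As SPRR1A passed the filter on low counts only through the HPV− parental libraries, this direction was largely set by the filter. Both HPV+ groups were at or under the floor of 3 read pairs, so no fold is given there. Its values are uncertain: the files held 1 of its 2 GENCODE transcripts, with a length of 270 bases where GENCODE release 44 gives 648. Of the 31-base words of the 648-base sequence, 14.9% also occur in SPRR1B. The share for the 270 bases that were counted was not computed.

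SPRR2A and SPRR3 were near the limit of detection. SPRR2A held 0.427 and 0.496 CPM in HPV− parental cells, none in the HPV− clone, 0.0393 and 0.0755 in HPV+ parental cells and 0.119 and 0 in the HPV+ clone. SPRR3, which is typical of the lining of the mouth and oesophagus, held 0.427 and 0.135 CPM in HPV− parental cells and 0.0393 CPM in a single HPV+ parental library, and was at 0 in the other 5 libraries. Both were lower in the HPV− clone than in its parental cells, at least 6.18-fold and at least 3.58-fold. With no filter on low counts their adjusted p-values in that comparison were 0.0542 and 0.169. SPRR2A shares 52.7% of its 31-base words with other genes and SPRR2D 29.4%, so reads may have been split between copies. With SPRR1A and SPRR1B added up, and the 7 SPRR2 genes added up, both sums still fell in the HPV− clone (adjusted p = 3.81e-07 and 0.000509) and rose in the HPV+ clone (adjusted p = 0.00468 and 0.0226).

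IVL encodes involucrin, an early precursor that serves as a classical marker of squamous differentiation. It held 1.01 and 1.44 CPM in HPV− parental cells and no read pair in the HPV− resistant clone. HPV+ parental cells held 0 and 0.0378 CPM, and the HPV+ resistant clone 0.278 and 0.155 CPM. IVL fell in the HPV− clone (at least 16.6-fold lower, adjusted p = 0.00463). As the gene passed the filter on low counts only through the HPV− parental libraries, this direction was largely set by the filter. In the HPV+ line 11 read pairs in the clone stood against 1 in the parental cells, a ratio of 11.2 with a counting interval of 1.63 to 482, and the test did not pass (adjusted p = 0.105).

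**Figure D1:**
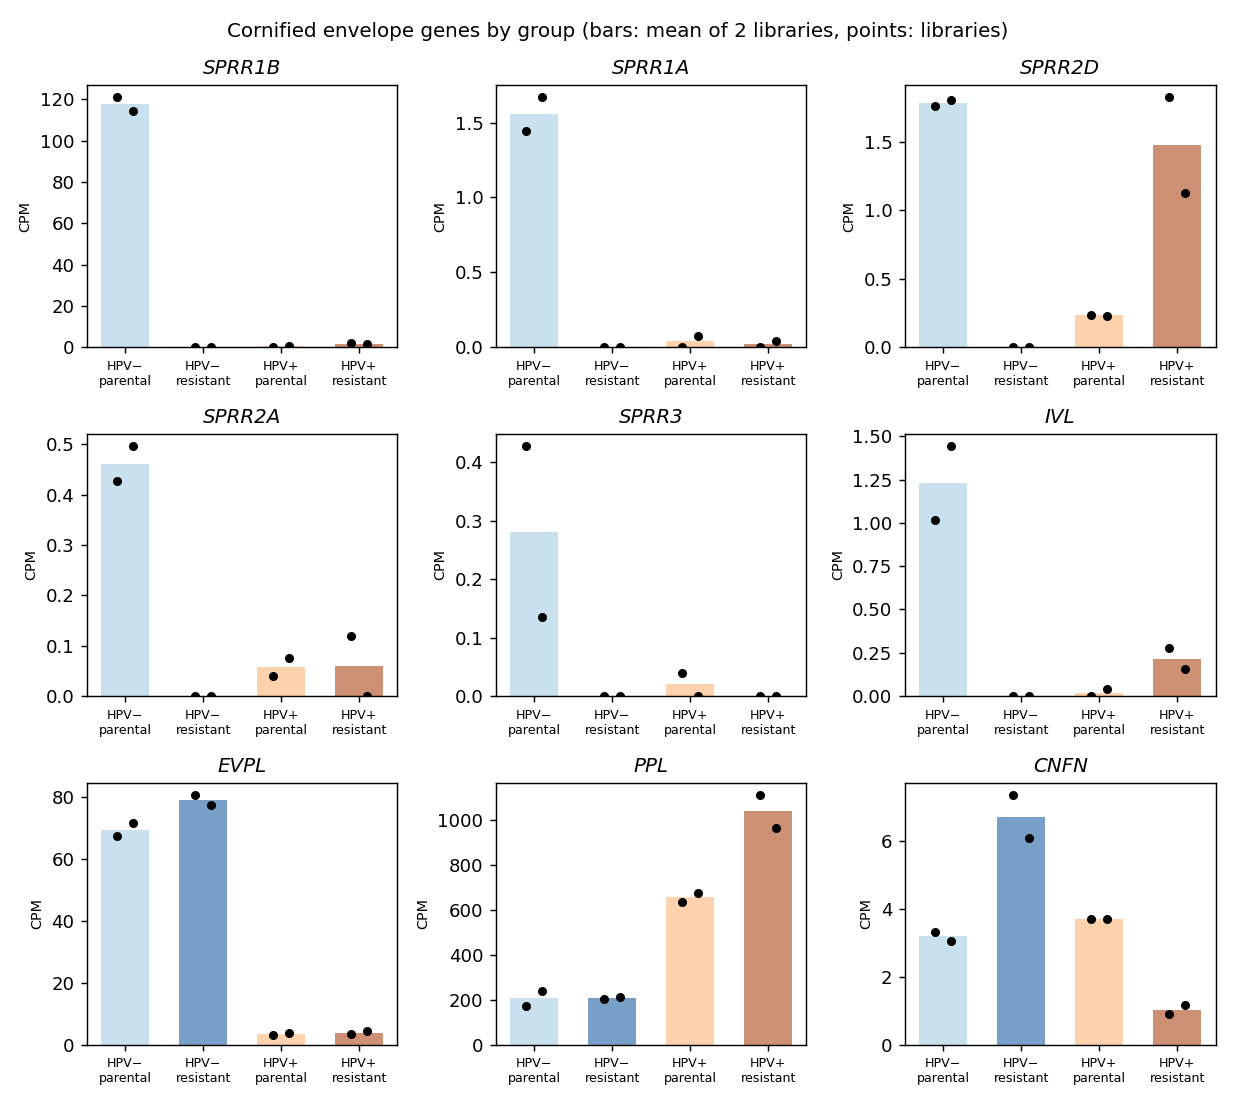
Read pairs scaled to library size (CPM, linear axis from 0, a separate scale for each gene) of the 9 genes in the 4 groups; bars are means of 2 libraries and points are single libraries. SPRR1B stands at 121 and 114 CPM in HPV− parental cells and at or below 1.78 CPM in the other 6 libraries, EVPL is high in both HPV− groups, PPL is highest in the HPV+ resistant clone, and CNFN is highest in the HPV− and lowest in the HPV+ resistant clone.

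The scaffold genes behaved differently from the precursors on chromosome 1. EVPL held 67.3 and 71.6 CPM in HPV− parental cells and 80.6 and 77.3 CPM in the HPV− resistant clone. In the HPV+ line it held 3.03 and 3.70 CPM in parental cells and 3.45 and 4.30 CPM in the clone. Neither comparison with resistance passed the test (log2 fold change 0.18 ± 0.15, SE, adjusted p = 0.395 in the HPV− line and 0.20 ± 0.18, adjusted p = 0.469, in the HPV+ line). The lines themselves differed: EVPL was 20.6-fold lower in HPV+ than in HPV− parental cells (log2 fold change −4.37 ± 0.18, SE, adjusted p = 3.85e-08). EVPL overlaps CDK3 and TEN1-CDK3 on the opposite strand, and no source says whether strand was used in counting. It also shares 4.11% of its 31-base words with other genes, mostly EVPLL.

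PPL, the partner of EVPL in the scaffold, held 174 and 239 CPM in HPV− parental cells and 202 and 214 CPM in the HPV− clone, which overlapped (log2 fold change 0.01 ± 0.17, SE, adjusted p = 0.991). HPV+ parental cells held 634 and 674 CPM and the HPV+ clone 1109 and 964 CPM. The clone's libraries were both higher, by 0.66 ± 0.17 on the log2 scale (SE, 1.58-fold, adjusted p = 0.026), which is below the study's threshold of a log2 fold change of 1. PPL was 3.17-fold higher in HPV+ than in HPV− parental cells (log2 fold change 1.66 ± 0.18, SE, adjusted p = 2.19e-05), the opposite direction to EVPL. PPL overlaps SEC14L5 on the opposite strand.

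CNFN, the remaining structural gene, went the other way from SPRR1B and SPRR2D in each line. It held 3.31 and 3.07 CPM in HPV− parental cells and 7.35 and 6.08 CPM in the HPV− clone, against 3.69 and 3.70 CPM in HPV+ parental cells and 0.912 and 1.16 CPM in the HPV+ clone. It fell 3.55-fold in the HPV+ clone (log2 fold change −1.83 ± 0.32, SE, adjusted p = 0.00459). Its rise in the HPV− clone was 2.11-fold (log2 fold change 1.07 ± 0.30, SE, adjusted p = 0.0248), a call close to the fold threshold. That call was lost when HPV− parental replicate 1 (adjusted p = 0.0764) or 2 (0.11), HPV− resistant replicate 1 (0.132), or HPV+ parental replicate 1 (0.0648) or 2 (0.055) was left out, with log2 fold changes of 0.93 to 1.12, and with an offset for transcript length (adjusted p = 0.0565).

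Counted over the 7 tested genes, the HPV− clone had 4 genes lower (SPRR1A, SPRR1B, SPRR2D and IVL) and 1 higher (CNFN), where 5.22% of all 15221 genes tested were called lower and 6.06% higher. SPRR1A and IVL passed the filter on low counts only through the HPV− parental libraries, so their direction against that group was largely set by the filter. The HPV+ clone had 2 genes higher (SPRR1B and SPRR2D) and 1 lower (CNFN), where 3.40% of all genes were called higher and 4.60% lower. Calls used the study's thresholds, a log2 fold change above 1 or below −1 with an adjusted p under 0.05. The median log2 fold change over all genes was 0.04 in the HPV− and 0 in the HPV+ line.

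**Figure D2:**
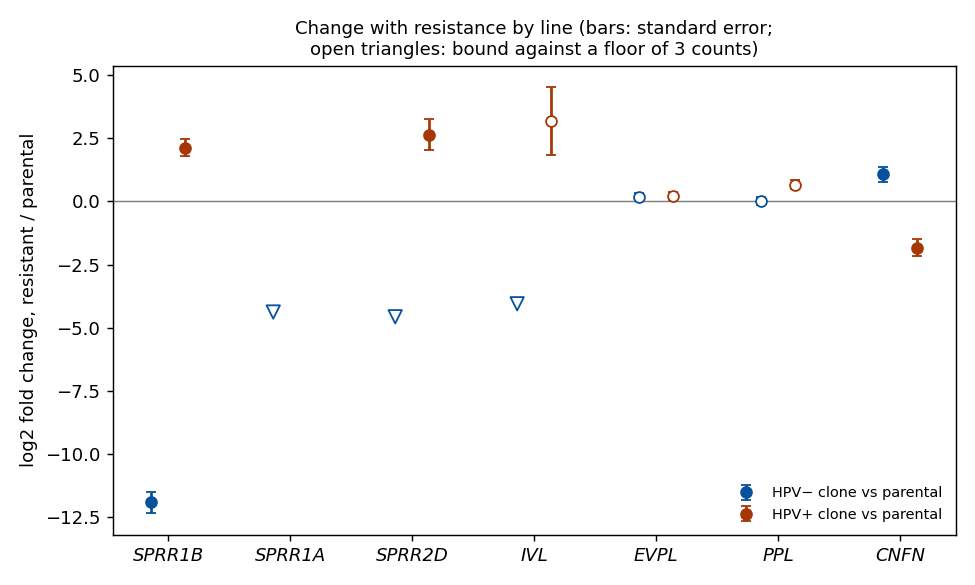
Log2 fold change of resistant over parental cells for the 7 tested genes in the HPV− line (blue) and the HPV+ line (brown); filled points passed the test and the fold threshold, open points did not, bars are standard errors, and open triangles mark the smallest change that a floor of 3 read pairs allows where the clone had none. SPRR1B lies at −11.91 in the HPV− and 2.12 in the HPV+ line and CNFN at 1.07 and −1.83; SPRR1A has no HPV+ point because both groups were at or under the floor.

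Whether resistance went with different changes in the 2 lines was tested directly, as the change in HPV+ cells minus the change in HPV− cells. SPRR1B (log2 difference 14.03 ± 0.58, SE, adjusted p = 8.61e-07), SPRR2D (adjusted p = 0.000761) and IVL (adjusted p = 0.00559) had higher differences, and CNFN a lower one (−2.90 ± 0.44, SE, adjusted p = 0.00203), against 5.17% of all genes higher and 6.57% lower (11.7% in either direction). DESeq2 called SPRR1B and SPRR2D higher and CNFN lower, and gave no adjusted p for IVL. IVL passed the filter on low counts only through the HPV− parental libraries, which by itself favours a higher difference. SPRR1A (adjusted p = 0.151), PPL (0.66 ± 0.25, SE, adjusted p = 0.0972) and EVPL (0.02 ± 0.24, SE, adjusted p = 1) did not pass. HPV status cannot be told apart here from other differences between these lines, from the cisplatin dose or from the choice of clone.

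Before selection the lines already stood apart. Of the 7 tested genes, 5 were lower in HPV+ than in HPV− parental cells and 1, PPL, was higher, where 19.3% of all genes were called lower and 17.7% higher. The direction of SPRR1A and IVL was again largely set by the filter on low counts, which they passed only through the HPV− parental libraries. SPRR1B was 302-fold lower (log2 fold change −8.24 ± 0.31, SE, adjusted p = 2.45e-08) and SPRR2D 7.56-fold lower (−2.92 ± 0.63, SE, adjusted p = 0.00282). For the genes with 1 to 3 read pairs in HPV+ parental cells the ratios were 40.6 for SPRR1A (counting interval 10.8 to 343), 64.7 for IVL (11.1 to 2607), 8.04 for SPRR2A (2.37 to 42.4) and 14.0 for SPRR3 (2.03 to 601). SPRR1A and IVL passed the test (adjusted p = 0.00252 and 0.00161), and CNFN did not (log2 fold change 0.21 ± 0.30, SE, adjusted p = 0.568). This comparison shares its HPV− parental libraries with that of the HPV− clone, so the 2 sets of changes are not independent.

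On a scale per transcript length, in TPM as the authors deposited them, the make-up of the set differed between groups. SPRR1B made up 78.05% and 73.8% of the summed TPM of the 9 genes in the HPV− parental libraries, where the sum was 369.7 and 449.1 TPM. In the HPV− resistant clone the sum was 82.8 and 77.4 TPM and was made of PPL (46.1% and 51.1%), CNFN (36.0% and 30.6%) and EVPL (17.7% and 18.4%). In the HPV+ libraries PPL alone made up 86.2% to 93.6%, with sums of 134.2 and 151.6 TPM in parental cells and 254.4 and 219.9 TPM in the clone. SPRR1A contributed 7.36% and 9.65% in HPV− parental cells, a share that rests on its short listed length.

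The ratio of the scaffold partners differed mostly between the lines. PPL stood at 2.50 and 3.27 times the TPM of EVPL in HPV− parental cells and at 2.60 and 2.78 times in the HPV− clone. In HPV+ cells the ratio was 234.3 and 165.6 in parental cells and 364.8 and 247.9 in the clone. All HPV+ libraries lay above all HPV− libraries, and within the HPV+ line both libraries of the clone lay above both parental libraries.

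**Figure D3:**
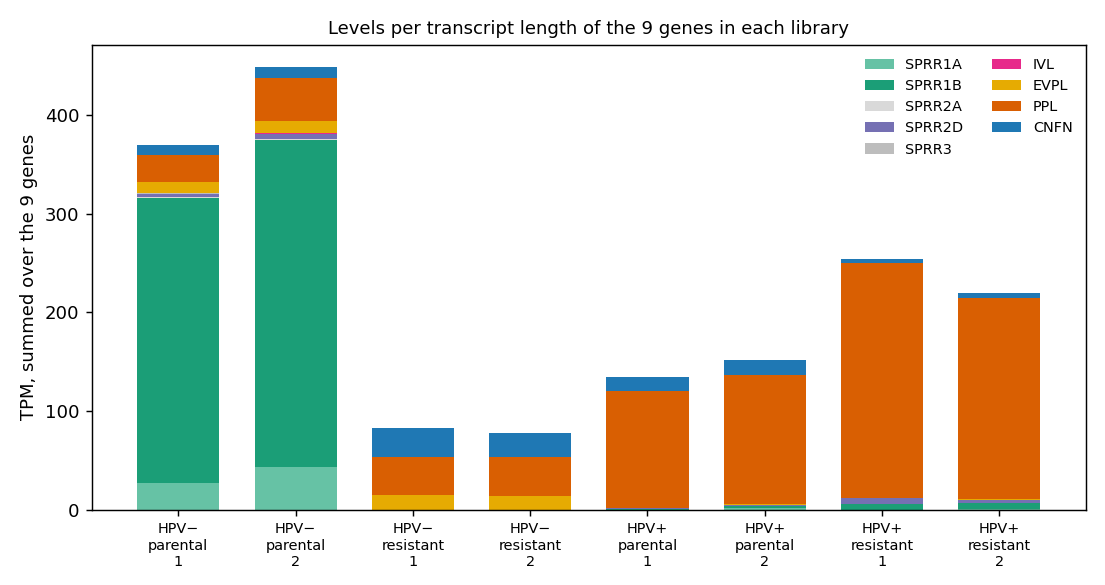
TPM of the 9 genes (a level per transcript length) stacked in each of the 8 libraries (linear axis from 0, colours mark genes). SPRR1B fills most of the bars of the 2 HPV− parental libraries and is absent or nearly so from the HPV− resistant libraries, while PPL fills most of the 4 HPV+ bars.

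Most reads of each gene came from its main protein-coding transcript: EVPL-201 held 90.6% of EVPL reads over all libraries, PPL-201 99.4%, and SPRR2D-201 and CNFN-201 100%. EVPL-203, annotated as a retained intron, held 6.28% of EVPL reads, from 0% to 20.3% by library.

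Related genes were taken from lists of the same pathway. For each list below, the shares over all genes tested were 5.22% lower and 6.06% higher in the HPV− clone. In the HPV+ clone they were 4.60% lower and 3.40% higher. Among 42 further envelope precursors and associated proteins, 13 were expressed enough to test. Of these 13, 6 were lower and none was higher in the HPV− clone (8 and 1 at an unadjusted p under 0.05; 6 and 0 with DESeq2), with a median log2 fold change of −0.82. PI3 (elafin, a protease inhibitor cross-linked into the envelope) went from 51.2 and 42.0 CPM to 0.101 and 0.249 CPM (adjusted p = 3.35e-05). KRTDAP, a keratinocyte differentiation-associated protein, went from 25.8 and 16.4 CPM to 0.101 and 0.15 CPM (adjusted p = 0.000208), and S100A10 fell by 2.10 ± 0.23 on the log2 scale (SE, adjusted p = 0.000354). PI3 and KRTDAP passed the filter on low counts only through the HPV− parental libraries. Their direction here, and so their part in the count of 6, was largely set by the filter.

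Of the same 13, 1 was higher and none was lower in the HPV+ clone (2 and 3 at an unadjusted p under 0.05; 2 and 0 with DESeq2), with a median of 0.13. That gene was CSTA, the cystatin A protease inhibitor, which rose from 22.5 and 21.1 CPM to 102 and 109 CPM (log2 fold change 2.28 ± 0.31, SE, adjusted p = 0.00226). For 5 of the 13 the difference between the lines passed, all towards HPV+, where 5.17% of all genes were called higher. Among them were CSTA (adjusted p = 0.000746), PI3 (0.00134) and KRTDAP (0.00622). In the HPV+ line PI3 held 0 and 0.0755 CPM in parental cells and 0.317 and 0.0387 in the clone (adjusted p = 0.235). KRTDAP held 0 and 0, then 0.159 and 0 (adjusted p = 0.171). The differences of PI3 and KRTDAP thus rested on the HPV− line, and both passed the filter on low counts only through the HPV− parental libraries.

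The cross-linking enzymes and the proteases and partners that act on them gave a mixed picture, with 8 of 15 tested. CTSD and PLAAT4 were higher and CTSV lower in the HPV− clone, whereas CTSV and LGMN were higher and TGM2 lower in the HPV+ clone. CTSV, a cysteine protease of stratified epithelium, changed in opposite directions, from 57.9 and 68.5 to 23.6 and 26.3 CPM in the HPV− line and from 15.0 and 16.8 to 37.2 and 26.7 CPM in the HPV+ line (difference between the lines 2.34 ± 0.27, SE, adjusted p = 0.000405). TGM2, the widely expressed tissue transglutaminase, held 20.0 and 22.9 CPM in HPV− parental cells and 37.6 and 41.1 CPM in the HPV− clone. TGM2 did not pass the test there (log2 fold change 0.875, adjusted p = 0.0802). In the HPV+ line it held 1.06 and 0.302 CPM in parental cells and 0 and 0.0775 CPM in the clone, a ratio of 17.2 with a counting interval of 4.42 to 148 (adjusted p = 0.0166).

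Of 15 plakins and junction proteins that anchor the scaffold, 14 were tested. The HPV− clone had 5 of them lower and none higher (11 and 0 at an unadjusted p under 0.05; 5 and 0 with DESeq2), with a median log2 fold change of −0.69. The HPV+ clone had 3 higher and 1 lower (3 and 6 at an unadjusted p under 0.05; 3 and 1 with DESeq2), with a median of 0.03. DSG1, the desmoglein of differentiated layers, went from 7.10 and 7.62 to 0.453 and 0.848 CPM in the HPV− line and from 0.707 and 0.68 to 3.77 and 3.02 CPM in the HPV+ line (difference between the lines 5.77 ± 0.56, SE, adjusted p = 0.000165). PKP1, a desmosomal plaque protein, fell by 2.13 ± 0.16 on the log2 scale in the HPV− clone (SE, adjusted p = 3.35e-05). DSC2 rose by 1.55 ± 0.19 in the HPV+ clone (SE, adjusted p = 0.000834). EPPK1, the epithelial plakin epiplakin, fell in both clones, by 1.22 ± 0.15 on the log2 scale in each (SE, adjusted p = 0.000502 and 0.000697).

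The suprabasal keratins did not move together in the HPV+ line. Of 6 tested, 4 were lower in the HPV− clone and 2 in the HPV+ clone, and none was higher in either (at an unadjusted p under 0.05, 0 and 1 were higher; DESeq2 gave the same counts of calls). KRT1, the keratin of the spinous layer, went from 107 and 90.1 to 0.101 and 0 CPM in the HPV− line (ratio 1952, counting interval 540 to 16125, adjusted p = 2.76e-05). KRT10, its partner, fell in both clones, with log2 fold changes of −2.28 ± 0.18 and −2.52 ± 0.18 (SE, adjusted p = 4.38e-05 and 4.85e-05). KRT13, the mucosal keratin, fell in the HPV+ clone from 67.5 and 57.5 to 1.78 and 2.25 CPM (adjusted p = 1.02e-05). KRT4 went from 0.855 and 0.541 CPM to 0 in the HPV− line (adjusted p = 0.00164). In the HPV+ line it held 622 and 617 CPM in parental cells and 969 and 765 in the clone (adjusted p = 0.0783). The difference between the lines was higher for KRT4 (adjusted p = 0.00162) and KRT1 (0.000166) and lower for KRT13 (1.21e-05). KRT1, KRT80 and KRT9 did not pass in the HPV+ line (log2 fold changes −0.22, 0.90 and −3.54).

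Among genes of the lipid barrier that forms around the envelope, 13 were tested. The HPV− clone had 2 of them up and 2 down, where 6.06% of all genes were called higher and 5.22% lower. The HPV+ clone had 2 down, where 4.60% of all genes were called lower. ABCA12, the lipid transporter of lamellar granules, went from 5.39 and 6.18 to 0.151 and 0.199 CPM in the HPV− line (adjusted p = 3.8e-05). SMPD1 (acid sphingomyelinase) and ALOX12B (a lipoxygenase of the barrier) rose in the HPV− clone, by 1.06 ± 0.28 and 1.99 ± 0.56 on the log2 scale (SE, adjusted p = 0.0195 and 0.0241). Both fell in the HPV+ clone, with log2 fold changes of −1.30 ± 0.28 and −2.73 ± 0.60 (SE, adjusted p = 0.0124 and 0.0123). CNFN took the same directions as SMPD1 and ALOX12B in each line. ABCA12 and SULT2B1 (log2 fold change −3.54, adjusted p = 0.00611) fell in the HPV− clone, opposite to CNFN.

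Among 37 transcription factors and signalling genes known to act on these promoters or on squamous differentiation, all tested, the HPV− clone had 4 up and 9 down and the HPV+ clone 6 up and 5 down (DESeq2 gave 4 and 8, and 7 and 5). ZNF750, a factor that drives late differentiation, held 6.57 and 8.43 CPM in HPV− parental cells and 0.302 and 0.299 CPM in the clone, a log2 fold change of −4.62 ± 0.53 (SE, adjusted p = 0.000349). In the HPV+ line it held 0.236 and 0.755 CPM in parental cells and 4.60 and 4.42 CPM in the clone, a rise of 3.17 ± 0.48 (SE, adjusted p = 0.00205). The difference between the lines was 7.78 ± 0.71 (SE, adjusted p = 0.000115), in the same direction as that of SPRR1B, SPRR2D and IVL.

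Other regulators moved in 1 line or in both. OVOL1, a transcriptional repressor of the differentiating epidermis, fell by 2.68 ± 0.28 on the log2 scale in the HPV− clone (SE, adjusted p = 0.00026). KLF4, a factor of barrier formation, fell by 2.77 ± 0.18 in the HPV+ clone (SE, adjusted p = 3.41e-05), where SPRR1B and SPRR2D rose, and also fell in the HPV− clone (log2 fold change −1.27, adjusted p = 0.00114), where they fell. ELF3, an epithelial ETS factor, went from 5.39 and 3.70 to 74.6 and 77.2 CPM in the HPV− line (adjusted p = 1.82e-05), where SPRR1B fell, and from 0.393 and 0.566 CPM to 0 in the HPV+ line (at least 8.19-fold lower, adjusted p = 0.00218). EHF, another epithelial ETS factor, rose in both clones, by 1.72 ± 0.21 and 1.20 ± 0.21 (SE, adjusted p = 0.000483 and 0.00493). Of the AP-1 subunits, JUNB fell by 1.33 ± 0.28 in the HPV+ clone (SE, adjusted p = 0.0125), and FOSL1 fell in the HPV− clone (log2 fold change −3.00, adjusted p = 0.00114) and was at 1.09 in the HPV+ clone (adjusted p = 0.0944). The other subunits listed did not fall with FOSL1 in the HPV− clone. JUND was higher there by 0.64 on the log2 scale, below the fold threshold (adjusted p = 0.0336). JUN, JUNB, FOS, FOSB and FOSL2 did not pass there (adjusted p from 0.22 to 0.998). The AP-1 subunits other than JUNB in the HPV+ clone, and KLF4 in the HPV− clone, were added after their values were seen.

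**Figure D4:**
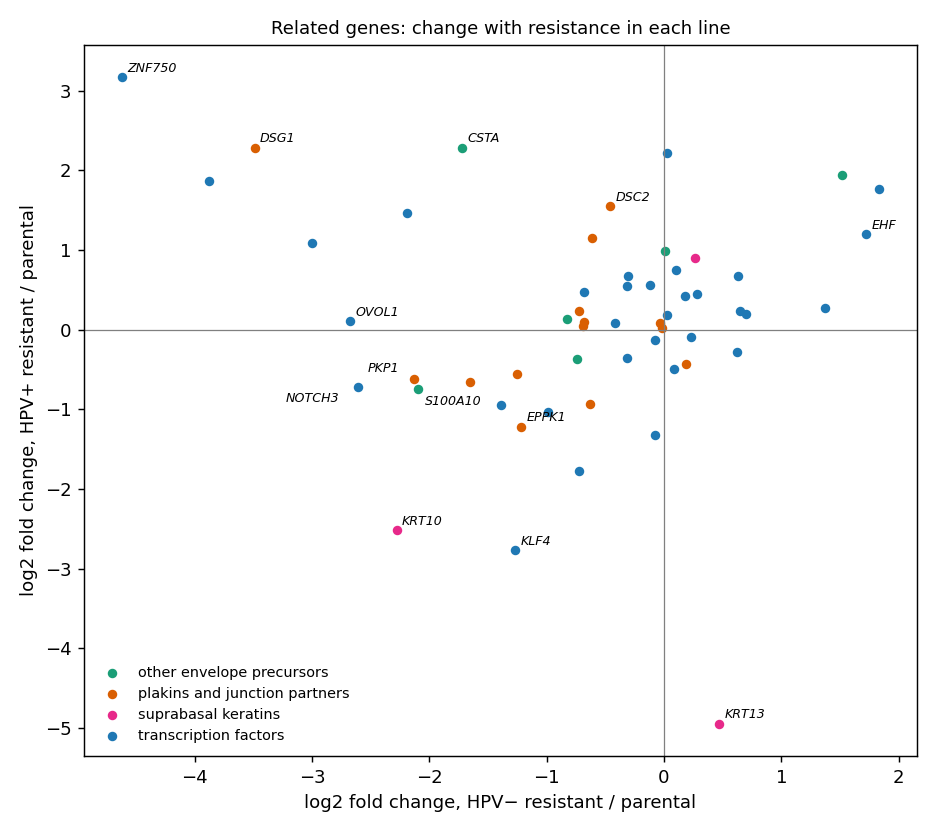
Log2 fold change of resistant over parental cells in the HPV− line (x axis) and the HPV+ line (y axis) for tested genes of 4 related lists, coloured by list; genes with 3 or fewer read pairs in any group are left out, which removes 7 of 13 envelope precursors, 3 of 6 suprabasal keratins and 5 of 37 transcription factors. ZNF750, DSG1 and CSTA lie at the upper left (down in the HPV− clone, up in the HPV+ clone), and KRT10, KLF4 and EPPK1 at the lower left.

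As a description of shared pattern, genes were ranked by Pearson correlation of log2 CPM over the 8 libraries, which share 4 groups, so no p is given. The mean of the 7 tested genes was most like TBC1D23 (0.991), the keratin KRT6C (0.991), TSR1 (0.99), the keratin KRT6B (0.987) and FKBP4 (0.983). Genes were centred but not scaled before averaging, so SPRR1B, with the widest range, weighs most in this mean. EVPL, PPL and CNFN had other patterns. KRT6B held 123 and 102 CPM in HPV− parental cells, 0.101 and 0.249 in the HPV− clone, 0.118 and 0.151 in HPV+ parental cells and 0.833 and 1.94 in the HPV+ clone. IVL alone was most like TBC1D23 (0.986), SERPINB5 (0.982), BRIX1 (0.981), KRT6A (0.98) and NUDCD1 (0.978). PPL was most like SNRPD3 (0.998), RAB11FIP1 (0.997), ZNF385B (0.996), POGLUT1 (0.995) and LY75 (0.995).

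The labelled cell type was checked against marker genes. The 8 markers of squamous basal cells summed to 16564 to 16781 CPM in HPV− parental cells, 6272 to 7468 in the HPV− clone, 5678 to 5880 in HPV+ parental cells and 4556 to 5334 in the HPV+ clone, and all 8 had reads. KRT14 moved with the precursors in the HPV− line, from 6547 and 5121 CPM to 221 and 282 CPM, and fell from 131 and 123 CPM to 60.9 and 46.3 CPM in the HPV+ line. KRT15 of the same list went against them, rising in the HPV− clone from 388 and 270 to 1136 and 919 CPM (adjusted p = 0.000781) and falling in the HPV+ clone (adjusted p = 0.000129). CDH3 was higher in the HPV− clone by 0.55 on the log2 scale, below the fold threshold (adjusted p = 0.0224), and fell in the HPV+ clone (adjusted p = 0.000151). The 8 fibroblast markers summed to 5.23 to 13.1 CPM in HPV− libraries but to 1452 to 3390 CPM in HPV+ libraries, mainly COL3A1 at 2718 and 2974 CPM in parental cells and 3079 and 1358 CPM in the clone. LUM (241 and 290 CPM in HPV+ parental cells, 91.0 and 65.8 in the clone) and DCN (99.4 and 119 CPM, then 43.6 and 20.0) were also expressed there and at or below 0.15 CPM in HPV− libraries, and both fell in the HPV+ clone (adjusted p = 0.00178 and 0.0339), while COL1A1 stayed at or below 8.36 CPM and PDGFRB at or below 0.302 CPM everywhere. The 6 simple-epithelium markers summed to 1384 to 1558 CPM in HPV− parental cells, 1747 to 2232 in the HPV− clone, 524 to 640 in HPV+ parental cells and 1297 to 1416 in the HPV+ clone. Of these, KRT19 was at 0 in the 4 HPV+ libraries and KRT7 at or below 0.189 CPM there. In the same line KRT18 went from 391 and 493 to 1071 and 955 CPM, CDH1 from 39.3 and 43.9 to 186 and 190, and EPCAM from 64.6 and 71.1 to 125 and 113. KRT8 held 29.4 to 38.2 CPM there. Leukocyte markers summed to 11.1 to 163 CPM, mostly CD68, with PTPRC at or below 0.18 CPM, and endothelial markers to at most 1.06 CPM, with KDR at 0. The part of these marker differences in the results above was not tested.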

How the data were processed

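RNA was measured by polyA mRNA sequencing in 2 libraries of each of 4 groups, grouped by GEO's labels. The authors ran Salmon against GRCh38, and deposited estimated counts (expected read pairs) and TPM per transcript for each library. Which Salmon version and annotation they used was not given in the sources used here. RNA came from either of 2 extraction kits, and no source says which library had which. From the estimated counts, 172550 of 187432 transcripts were matched to GENCODE release 44 by ID without version, summed per gene and rounded; the 14882 others held 4.33% to 5.13% of read pairs. All 8 libraries entered 1 fit in edgeR 4.0.16 (limma 3.58.1, R 4.3.3) with TMM factors, a coefficient for each group, the default low-count filter and the robust quasi-likelihood test (4 residual degrees of freedom), and Benjamini-Hochberg adjustment ran over 15221 genes. CPM used TMM-scaled library sizes, log2 CPM a prior count of 2. The authors used DESeq2, which served here as an alternative (1.42.0). Other alternatives were edgeR on the 4 libraries compared, RLE and upper-quartile factors, a length offset, no filter or 5 CPM in 2 libraries, summed SPRR copies, no minimum fold, a replicate block and each library left out. The scripts were tested on simulated data. Replicates differed by more than sampling noise. Where a group had no read pair, folds were bounded with 3 read pairs over the group; intervals are exact 95% binomial and, like the floor, cover counting error only. Library depth sets the limit for genes with few read pairs.

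The 10 genes and the related lists were chosen with earlier results of these data known. Besides the 10, the genes named were up to 3 per direction, list and comparison with the smallest p among called genes averaging 1 CPM or more, and the 5 genes most correlated with the mean, IVL or PPL; not all are printed, and some are not reported here. Python 3.11.15 with scipy 1.17.1, pandas 2.3.3, matplotlib 3.10.9 and numpy 2.4.6 made the tables and figures.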

Additional observations from a re-analysis of the deposited data

Results flagged for a closer look

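For 4 of the 7 tested genes, the change with resistance differed between the HPV+ and the HPV− line by the edgeR test of the difference itself. Over all genes tested, 11.7% were called in either direction, 5.17% higher and 6.57% lower. DESeq2 called SPRR1B, SPRR2D and CNFN, and gave no adjusted p for IVL. SPRR1B (adjusted p = 8.61e-07), SPRR2D (adjusted p = 0.000761) and IVL (adjusted p = 0.00559) had a higher change in HPV+ cells, with all resistant libraries below all parental libraries in the HPV− line and above them in the HPV+ line. CNFN had a lower change in HPV+ cells (adjusted p = 0.00203), with the resistant libraries above the parental ones in the HPV− line and below them in the HPV+ line. For SPRR2D and IVL the HPV− resistant clone had no read pair, so only the test and not the size of the difference can be read. IVL passed the filter on low counts only through the HPV− parental libraries, so the direction of its difference was partly set by the filter.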

How the results depend on the processing

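Of the 439 values recomputed for single genes, 419 kept their direction and their side of the threshold, 9 kept the direction but no longer passed, and 11 changed sign, all 11 for genes that had not passed. The number of genes higher in the HPV− clone was 1 and became 0 with an offset for transcript length, and ranged from 0 to 1 with single libraries left out, because CNFN was lost without HPV− parental replicate 1 or 2, HPV− resistant replicate 1, or HPV+ parental replicate 1 or 2. The number higher in the HPV+ clone was 2, became 3 with PPL when no minimum fold change was asked, and ranged from 1 to 2 with single libraries left out, because SPRR2D was lost without HPV+ parental replicate 1 or 2 or HPV+ resistant replicate 1. A filter of 5 CPM in 2 libraries left 1 gene lower in the HPV− clone (4 otherwise), 1 higher in the HPV+ clone (2), 1 with a higher difference between the lines (3) and 2 lower in HPV+ parental cells (5), as the other genes were too low to be tested. Without either HPV+ resistant library SPRR2A passed the filter and was called lower in the HPV− clone, which made 5.

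The sign changes were those of PPL in the HPV− line (−0.0198 in a fit of the 4 libraries, −0.0038 without a filter, and −0.212 to 0.186 with single libraries left out, below 0 without HPV− parental replicate 1, HPV− resistant replicate 2 (−0.0423) or HPV+ parental replicate 1 (−0.0411)), of SPRR1A in the HPV+ line (−2.99 to 2.17 with single libraries left out, above 0 when HPV+ parental replicate 2 or, at 0.0077, HPV+ resistant replicate 1 was dropped) and of the EVPL difference between the lines (−0.0163 with upper-quartile factors, and −0.148 to 0.172 with single libraries left out, below 0 without HPV− resistant replicate 2 (−0.0061), HPV+ parental replicate 1 (−0.0815) or HPV+ resistant replicate 2). Upper-quartile factors gave a median log2 fold change over all genes of 0.117 in the HPV− line, where TMM gave 0.0364. DESeq2 gave no adjusted p for IVL in the difference between the lines.

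Libraries share replicate numbers across groups, but the numbers did not pair them (correlations of deviations from −0.0739 to 0.142). With the replicate number as a block, 4 genes were lower and 1 higher in the HPV− clone, 2 higher and 1 lower in the HPV+ clone, 3 higher and 1 lower in the difference and 5 lower and 1 higher in HPV+ parental cells, as without it. Genes under about 1 CPM rest on few read pairs, and changes in them below the bounds given could not be seen at this depth.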

Other observations

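Around the chromosome 1 cluster, 34 other tested genes lay within 1 Mb of the 6 precursor genes. In the HPV− clone 9 of the 34 were lower and 1 higher, where 5.22% of all genes were called lower and 6.06% higher. The 9 include genes expressed almost only in HPV− parental cells, whose direction was largely set by the filter on low counts. S100A12 is one, with a log2 fold change of −8.61 against HPV− parental cells in both the HPV− clone and HPV+ parental cells. In the HPV+ clone 4 were lower and 1 higher, where 4.60% of all genes were called lower and 3.40% higher. This window was chosen after values of these data were known, and no test was made of it.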
